A study of Mus musculus with 18 samples.

Results

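The genes studied here encode 10 core proteins of basement membranes and were followed across 18 RNA-sequencing libraries of mouse embryonic fibroblasts (MEF): the laminin α chains Lama2, Lama4 and Lama5, the β chains Lamb1 and Lamb2, the γ chain Lamc1, the nidogens Nid1 and Nid2, and the heparan sulfate proteoglycans Hspg2 (perlecan) and Agrn (agrin). They were found by gene symbol, and 10 of the 55450 genes in the table are these members. MEF from a commercial cell collection were transfected with a plasmid and, 6 h later, either received TGF-β for 24 h or did not, which gave 6 groups of 3 libraries. Cells of the control groups carried the empty pcDNA3 vector. In the Col1a1-miR-29b plasmid a rat Col1a1 promoter drives EGFP and the human miR-29b-1 sequence. The CMV-miR-29b plasmid carries a CMV promoter in its place, and in both an SV40 promoter drives mRFP1 as a transfection marker. The empty vector was described without these reporters. The plasmids were matched in moles, so their masses differed, and an effect of miR-29b cannot be told apart from one of the reporters or the DNA mass in a comparison with the empty vector.

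Basement membranes are thin sheets of extracellular matrix on which epithelia rest and which wrap muscle, nerve and fat cells. A laminin is a trimer of 1 α, 1 β and 1 γ chain that polymerizes into a network and binds integrins and dystroglycan through its α chain. Type IV collagen forms another network, nidogens link it to the laminin γ1 chain, and perlecan and agrin add heparan sulfate chains that hold growth factors. Fibroblasts secrete many of these proteins, and TGF-β, the main fibrogenic cytokine, changes the matrix they make. The miR-29 family represses many matrix genes by pairing through its seed, bases 2 to 8, with sites in 3' UTRs.

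The microRNA and its sites are shown first, because they are what the vectors were built to act through. The mature mouse sequences come from RefSeq (GRCm38.p6), with the seed in capitals, and the 3 miR-29 forms share that seed:
mmu-miR-29b-3p: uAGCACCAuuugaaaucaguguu
mmu-miR-29a-3p: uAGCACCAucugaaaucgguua
mmu-miR-29c-3p: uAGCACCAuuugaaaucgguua
The annotated 3' UTRs of the members (GENCODE M21, GRCm38) were searched on the transcript strand for TGGTGCTA (8mer), TGGTGCT without the final A (7mer-m8) and GGTGCTA without the leading T (7mer-A1). Of the 10 members, 4 hold a match and each holds 1, shown in capitals with its flanks:
Lamc1 8mer: tatctgacacacTGGTGCTAttaatt
Agrn 7mer-m8: agagacaaaaagTGGTGCTgaggga
Nid2 7mer-A1: tatttatactaaGGTGCTAcaaaga
Hspg2 7mer-A1: ttcttaataaacGGTGCTAtccccg
The match in Lamc1 is at chr1:153220068-153220075 (minus strand), base 1398 of a 3' UTR of 2551 bases. That in Agrn is at chr4:156166333-156166339 (minus strand), base 157 of 1206. Nid2 has its match at chr14:19811663-19811669 (plus strand), base 467 of 591, and Hspg2 at chr4:137570615-137570621 (plus strand), base 951 of 966. Of the 14377 tested genes with an annotated 3' UTR, 2617 (18.2%) hold at least 1 of these matches. The share rises with length, so it was also taken over genes with 3' UTRs of like length: 30.4% for Lamc1, 16.6% for Agrn, 13.0% for Hspg2 and 9.6% for Nid2. Nid1 has no match in 2202 bases, a length at which 27.5% of genes hold 1. The 3' UTRs of Lama2, Lama4, Lama5, Lamb1 and Lamb2 are short, 110 to 210 bases, and hold none.

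Total counts ran from 65898017 to 80332633 per library with a median of 74155860, and no library repeated another. At the Mir29b-1 gene, poly(A) RNA gave 0 counts in all 6 empty vector libraries. The Col1a1-miR-29b libraries held 0, 1 and 1 counts without TGF-β and 4, 2 and 6 with it. The CMV-miR-29b libraries held 110, 115 and 309 counts when untreated and 214, 203 and 293 after TGF-β, so these counts follow the CMV-miR-29b label. The 0, 1 and 1 counts of Col1a1-miR-29b libraries without TGF-β are too few to tell them from the empty vector. All these counts come from polyadenylated transcripts, and the mature microRNA was not measured. The 9 fibroblast markers summed to 1666 to 2399 CPM (read counts scaled to library size) without TGF-β and 3299 to 5128 CPM with it, and Col1a1, Col1a2 and Vim carried the sum. Lum had 0 counts in every library, Thy1 0 to 8, and Fap and Dcn had medians of 0.666 and 3.24 CPM. The 6 endothelial markers summed to 1.27 to 3.81 CPM and 6 epithelial markers to 0.267 to 3.05 CPM, both higher with TGF-β in each vector. The part of these 3 sums in the TGF-β comparisons was not tested. Skeletal muscle markers summed to 13.8 to 21.9 CPM, macrophage and leukocyte markers to 17.6 to 23.3 CPM, and Schwann and neural markers to 1.36 to 2.93 CPM. Des carried the muscle sum (median 16.2 CPM), where Myod1, Myog, Ckm and Myh3 stayed at or under 0.872 CPM. Cd68 and Cd14 carried the macrophage sum (medians 11.3 and 7.61 CPM), where Ptprc, Adgre1 and Csf1r stayed at or under 0.762 CPM.

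Of the 10 members, 8 were abundant and 2 were close to absent. Levels between genes are compared as FPKM, the authors' unit per transcript length and library size. The order of genes depends on the lengths used for FPKM, which were not examined. By counts, Lamb1 (110.5 CPM) was above Nid2 (83.6 CPM) in empty vector cells without TGF-β, with longest transcripts of 5784 and 4876 bases. In empty vector cells without TGF-β, Nid1 was the highest at 44.0 ± 0.8 FPKM (SD, n = 3), followed by Hspg2 at 27.8, Lamc1 at 24.8, Agrn at 21.2, Lamb2 at 20.3, Lama5 at 15.4, Nid2 at 14.5 and Lamb1 at 9.97 FPKM. Neighbours in this order did not overlap between libraries except Agrn and Lamb2. The order changed with TGF-β in these cells, since Nid1 (29.8 FPKM) and Lamc1 (29.5 FPKM) overlapped, and Lamb1 (14.9 FPKM) came to lie beside Lamb2 (16.0 FPKM) and Lama5 (14.8 FPKM).

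**Figure D1:**
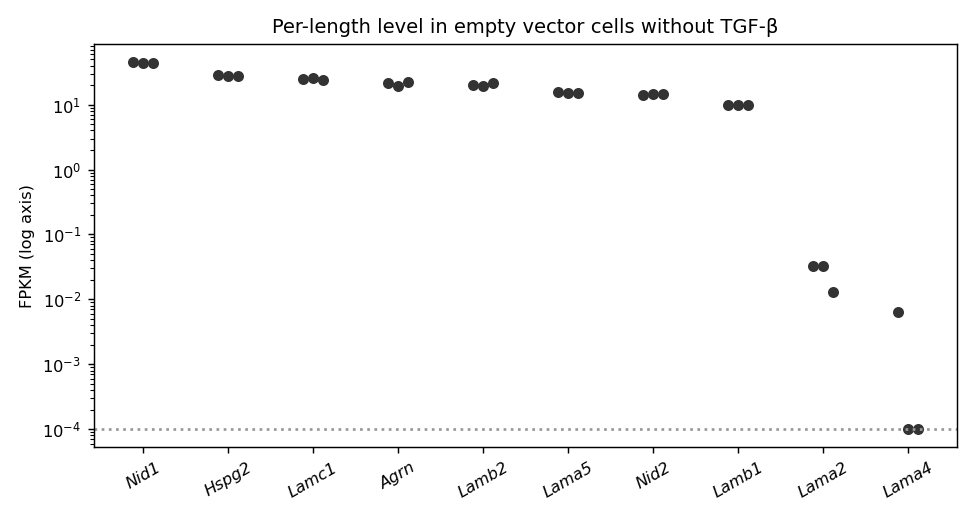
FPKM on a log axis of the 10 members in the 3 empty vector libraries without TGF-β, 1 point a library, with a dotted line at 0.0001, the value the table lists in place of 0. The abundant 8 genes lie between 9.93 and 44.9 FPKM, Lama2 between 0.0132 and 0.0331 FPKM, and Lama4 at 0.00643 FPKM in library c and on the dotted line in the other two.

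Lama2 encodes the α chain of muscle and nerve laminin and Lama4 that of vessel and mesenchymal laminin. Lama2 gave 0 to 50 counts per library and Lama4 0 to 12, against 10730 to 15991 for Lama5 (ENSMUSG00000015647, chr2:180176373-180225859, minus strand), the α chain of the most widespread laminins of adult tissues. Lama4 did not pass the filter on low counts and was not tested. By FPKM, Lama5 made up 98.7% of the sum of the 5 laminin α chain genes in empty vector cells (98.6% to 98.7%, n = 3) and 98.7% to 99.5% on average in each group. Lama3 followed at 1.12%, Lama2 at 0.168%, and Lama4 and Lama1 below that.

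The comparison of cells with and without TGF-β asks which basement membrane genes respond to the cytokine. In empty vector cells 3 of the 9 members tested passed an adjusted p of 0.05 (edgeR's quasi-likelihood test, Benjamini-Hochberg over 21161 genes): Lamb1 rose, and Nid1 and Lamb2 fell. Over all genes 5.88% passed, of which 65.9% were higher with TGF-β (55.6% once offsets for transcript length and GC content were added). In Col1a1-miR-29b cells 2 members passed, Lamb1 and Nid1, against 4.32% of genes. With the CMV-miR-29b plasmid 3 passed, Lamb1, Nid1 and Lamb2, against 4.95%. The libraries with and without TGF-β did not overlap for 5, 5 and 3 of the 9 members with these 3 vectors, and for 21.0%, 21.9% and 20.9% of all genes. The groups behind these 3 comparisons share no library. Lamb1 and Nid1 thus passed in the same direction with every vector, as did 2.63% of all genes. The median log2 fold change of the members was −0.078, −0.071 and −0.089, where that of all genes was 0.0023, −0.0056 and −0.0026. Fold changes below are on the log2 scale of TMM-scaled counts, and p-values measure only the spread between these libraries, since the methods speak of repeated experiments and the labels do not say whether libraries came from separate cultures.

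Lamb1, the β1 chain (ENSMUSG00000002900, chr12:31265234-31329644, plus strand of GRCm38), carried the largest rise. It stood at 111, 111 and 109 CPM in the empty vector libraries without TGF-β and at 172, 155 and 179 CPM with it, with no overlap. The rise was 1.53-fold (log2 0.61, SE 0.062, adjusted p = 9.8e-06). In Col1a1-miR-29b cells Lamb1 went from 107, 107 and 105 CPM to 143, 143 and 147 CPM (log2 0.44, SE 0.062, adjusted p = 0.00039). In CMV-miR-29b cells it went from 121, 112 and 98.0 CPM to 153, 159 and 152 CPM (log2 0.49, SE 0.062, adjusted p = 0.00010). Every library with TGF-β was above every library without it, within each vector. These calls held under all 12 alternative settings and whichever library was left out.

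Lamb2 (ENSMUSG00000052911, chr9:108479736-108490530, plus strand), the β2 chain that replaces β1 in some mature and synaptic laminins, moved the other way. In empty vector cells it was at 137, 132 and 144 CPM without TGF-β and at 106, 116 and 111 CPM with it, without overlap, and fell by 0.31 on the log2 scale (SE 0.077, adjusted p = 0.023). In CMV-miR-29b cells 130, 171 and 142 CPM became 117, 109 and 120 CPM, a fall of 22.1% (log2 −0.36, SE 0.077, adjusted p = 0.010). In Col1a1-miR-29b cells the groups did not overlap either, at 145, 141 and 136 CPM against 128, 121 and 123 CPM, but the log2 difference of −0.18 (SE 0.077) had an adjusted p of 0.29 in edgeR's test. Libraries are named by the letters of their titles. That in empty vector cells was lost without empty vector library c (0.054) or e (0.090) or TGF-β library c (0.093) or e (0.067). That in CMV-miR-29b cells was lost with the 2 groups fitted alone (0.14) and without TGF-β library d (0.056).

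The balance of the β chains, taken as the ratio of Lamb1 to Lamb2 counts within a library, does not depend on how libraries are scaled. It was 0.802 in empty vector cells (0.758 to 0.839) and 1.52 with TGF-β (1.34 to 1.63). It went from 0.758 to 1.16 with the Col1a1-miR-29b plasmid and from 0.747 to 1.35 with CMV-miR-29b. All 9 ratios with TGF-β lay above all 9 without it. Each comparison had p = 0.1 in a two-sided exact permutation test, the smallest that 3 libraries against 3 allow, and 0.27 after adjustment over 27 tests. By FPKM, Lamb1 made up 32.1% of the 3 β chain genes in empty vector cells and 45.0% with TGF-β, Lamb2 65.2% and 48.3%, and Lamb3 2.75% and 6.73%. With TGF-β, counts thus put Lamb1 above Lamb2 and mean FPKM put it below, though their longest transcripts are 5784 and 5629 bases. These shares depend on the lengths used for FPKM, which were not examined.

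**Figure D2:**
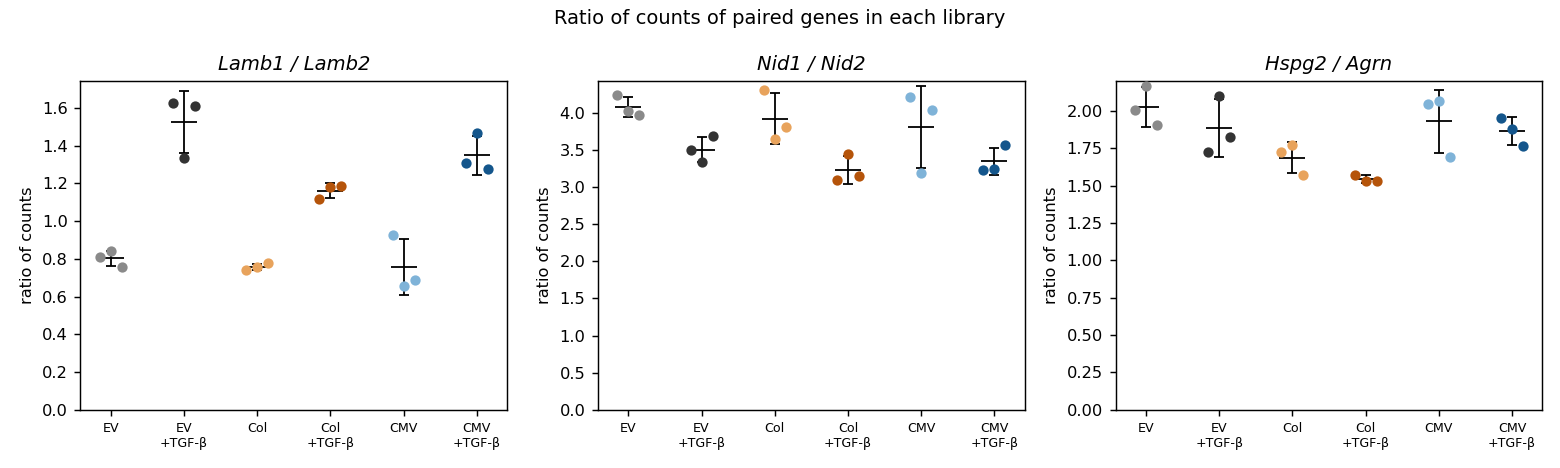
Ratio of the counts of Lamb1 to Lamb2, Nid1 to Nid2 and Hspg2 to Agrn in each of the 18 libraries by group (EV, empty vector; Col, Col1a1-miR-29b; CMV, CMV-miR-29b), with the mean and SD of 3 libraries in black. Lamb1/Lamb2 is between 0.654 and 0.927 in libraries without TGF-β and between 1.11 and 1.63 in those with it, and Hspg2/Agrn is lowest in the Col1a1-miR-29b groups.

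Lamc1 (ENSMUSG00000026478, chr1:153218922-153332786, minus strand), the γ1 chain common to most laminins, did not pass in any vector. In empty vector cells it was at 234, 237 and 217 CPM without TGF-β and 238, 282 and 317 CPM with it, so the groups just missed each other, and the log2 difference was 0.28 (SE 0.11, adjusted p = 0.17 in edgeR's test). With Col1a1-miR-29b it was 0.14 (SE 0.11) and with CMV-miR-29b −0.073 (SE 0.11), where libraries with TGF-β spread from 193 to 266 CPM. Lama5 differed by −0.025 to −0.069 with SE 0.056, and its groups overlapped in each vector.

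Nid1 (ENSMUSG00000005397, chr13:13437551-13512269, plus strand), a nidogen that bridges laminin and type IV collagen, fell in all 3 vectors. Empty vector libraries held 351, 339 and 334 CPM without TGF-β and 236, 242 and 233 CPM with it. With no overlap, Nid1 fell by 30.5% (log2 −0.52, SE 0.048, adjusted p = 3.4e-06). Col1a1-miR-29b libraries went from 319, 300.2 and 291 CPM to 207, 224 and 217 CPM (log2 −0.49, SE 0.048, adjusted p = 9.3e-06), and CMV-miR-29b libraries from 323, 309 and 289 CPM to 232, 224 and 214 CPM (log2 −0.46, SE 0.048, adjusted p = 1.6e-05). The calls held under all 12 alternatives and without each library. Nid2 (ENSMUSG00000021806, chr14:19751265-19811787, plus strand), its paralog, had lower means with TGF-β as well, with log2 differences of −0.30, −0.21 and −0.29 (SE 0.094 each) in empty vector, Col1a1-miR-29b and CMV-miR-29b cells, and none passed (adjusted p = 0.078, 0.31 and 0.11). Its libraries did not overlap in the first and second of these, and overlapped in CMV-miR-29b cells. In empty vector cells Nid2 passed with DESeq2 (adjusted p = 0.025) and with length and GC offsets (0.019), and in CMV-miR-29b cells without the library e that had no TGF-β (0.033). The Nid1 to Nid2 ratio was 4.08 in empty vector cells and 3.50 with TGF-β, 3.91 and 3.23 in Col1a1-miR-29b cells (exact permutation p = 0.1 each), and 3.79 and 3.34 in CMV-miR-29b cells, where libraries overlapped.

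The proteoglycan genes stayed within their spread. Hspg2 (ENSMUSG00000028763, chr4:137468769-137570630, plus strand), perlecan, had log2 differences of −0.078, −0.071 and −0.089 (SE 0.082), and Agrn (ENSMUSG00000041936, chr4:156165290-156197488, minus strand), agrin, of 0.024, 0.056 and −0.033 (SE 0.057), with overlapping libraries in every vector. Lama2 differed by −0.60, −1.15 and −0.38 with SE of 0.77 to 0.84, so that changes of several fold were not detectable at its 0 to 50 counts. The offsets for transcript length and GC content brought Lama5 past the threshold in empty vector cells (log2 −0.13, adjusted p = 0.050) and Col1a1-miR-29b cells (log2 −0.14, adjusted p = 0.037).

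**Figure D3:**
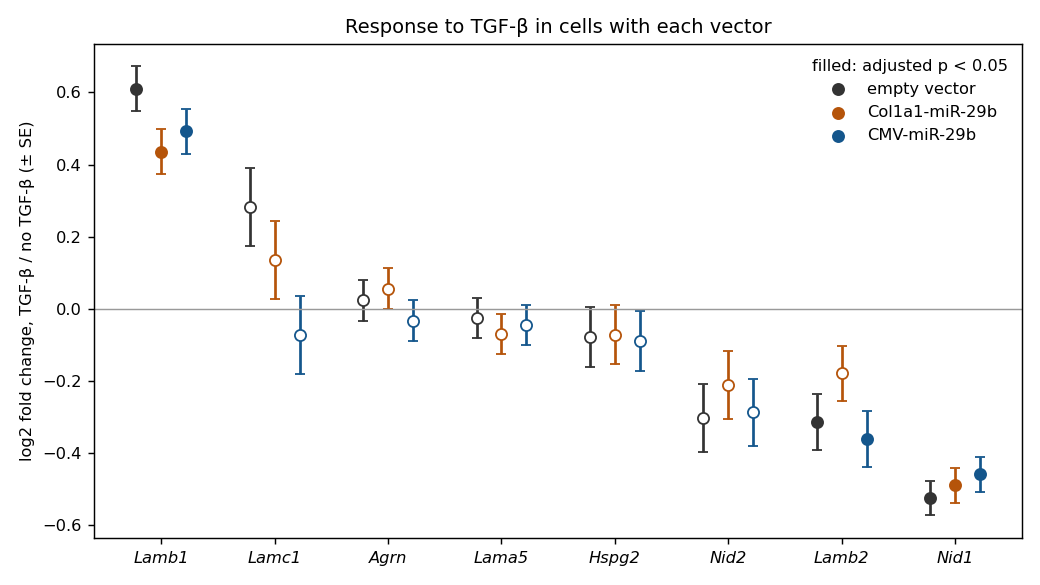
Log2 fold change of TGF-β against no TGF-β with its standard error for 8 members in cells with each vector, 3 libraries against 3, with filled points at an adjusted p under 0.05. Lamb1 is at 0.44 to 0.61 and Nid1 at −0.46 to −0.52 in the 3 vectors, and Agrn, Lama5 and Hspg2 lie within 0.1 of 0.

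The next comparison asks what the Col1a1-miR-29b plasmid changed against the empty vector. Without TGF-β, Hspg2, Lama5 and Nid1 were lower, 3 of 9 members against 3.7% of all genes lower. With TGF-β, Hspg2, Lama5 and Lamb1 were lower, 3 of 9 against 7.63%. These shares include genes of low counts. Among genes with at least 10 counts in every library, 1072 of 15805 were called lower without TGF-β and 1712 with it. No member was called higher in edgeR's test, as 2.57% and 5.31% of all genes were. The 3 libraries of the plasmid lay below the 3 of the empty vector for 5 of 9 members without TGF-β and 6 of 9 with it, where 14.1% and 15.2% of all genes did so. They lay above for 1 member, Lamb2 with TGF-β, beside 14.8% of all genes. The median log2 difference of the members was −0.13 and −0.23, and that of all genes 0.018 and 0.019. All of these calls were lost with length and GC offsets, and in limma on FPKM. Over all genes the share of calls that were higher went from 40.9% and 41.0% to 66.1% and 62.3% with the offsets.

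Hspg2 showed the largest differences among the members called. It was at 457, 436 and 437 CPM in empty vector libraries and at 368, 353 and 325 CPM in Col1a1-miR-29b libraries, with no overlap. It was lower by 21.4% (log2 −0.35, SE 0.083, adjusted p = 0.023). With TGF-β the values were 391, 450 and 420 CPM against 340, 336 and 319 CPM (log2 −0.34, SE 0.083, adjusted p = 0.014). With length and GC offsets the differences became −0.15 (adjusted p = 0.15) and −0.11 (0.28). Without TGF-β the call was lost without empty vector library c or d or Col1a1-miR-29b library d or the unlettered one (known by its group alone), at −0.30 to −0.38 and adjusted p of 0.055 to 0.087. With TGF-β it was lost without empty vector library e (0.053) or the unlettered plasmid library (0.051).

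Lama5 ran from 194 to 199 CPM in empty vector libraries and from 165 to 171 CPM with the plasmid (log2 −0.22, SE 0.056, adjusted p = 0.029). With TGF-β, 187, 191 and 201 CPM stood against 161, 167 and 152 CPM (log2 −0.27, SE 0.056, adjusted p = 0.0058). The second call held without each library and under 7 of 12 alternatives, and the first was lost without any 1 of 5 of the 6 libraries (adjusted p of 0.052 to 0.087; only empty vector library e could be spared). Offsets reduced the differences to −0.050 (adjusted p = 0.48) and −0.064 (0.31). Hspg2 and Lama5 have the most GC-rich transcripts of the members, 60.9% and 59.9%, and the longest, 14187 and 11388 bases. Their log2 CPM values had a Pearson correlation of 0.951 over the 18 libraries, which share the 6 groups and the scaling of each library.

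Nid1 without TGF-β, at 334 to 351 CPM against 291 to 319 CPM, was just past the threshold (log2 −0.17, SE 0.048, adjusted p = 0.049). It was lost under 9 of 12 alternatives and without every library but Col1a1-miR-29b library c (adjusted p of 0.059 to 0.16). With TGF-β it was at −0.13 (SE 0.048, adjusted p = 0.083 in edgeR's test). Lamb1 with TGF-β, at 155 to 179 CPM against 143 to 147 CPM, was lower by 14.6% (log2 −0.23, SE 0.062, adjusted p = 0.024). That call was lost under 7 of 12 alternatives and without empty vector library c (0.069) or e (0.14) or Col1a1-miR-29b library c (0.077) or d (0.070). Without TGF-β Lamb1 was at −0.054 (SE 0.062).

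Lamc1, with the only 8mer match, was at 193, 218 and 218 CPM against 217 to 237 CPM without TGF-β (log2 −0.13, SE 0.11). With TGF-β it was at 228, 236 and 227 CPM, each below the 238, 282 and 317 CPM of the empty vector, and the log2 difference of −0.28 (SE 0.11) had an adjusted p of 0.12 in edgeR's test. Without empty vector TGF-β library c it was −0.39 and passed (0.041). Agrn, with a 7mer-m8 match, was at −0.088 and −0.057 (SE 0.057), and Nid2, with a 7mer-A1 match, at −0.11 and −0.018 (SE 0.094). Lamb2, with no match, was at 0.027 and 0.16 (SE 0.077), and with offsets its difference with TGF-β passed at 0.26 (adjusted p = 0.027). Members with and without a match were thus found on both sides of the threshold: Hspg2 has a match, while Lama5, Nid1 and Lamb1 have none.

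Genes of the interferon response were higher in the same libraries. Of 10 such genes, 6 were called higher with the Col1a1-miR-29b plasmid under each treatment, beside 2.57% and 5.31% of all genes. Their summed level was 2504 to 2654 CPM against 1725 to 1797 CPM in empty vector cells without TGF-β, and 2199 to 2465 CPM against 1474 to 1602 CPM with it. In CMV-miR-29b cells it was 1807 to 2152 and 1510 to 1588 CPM. None of the 10 passed there against the empty vector, beside 0.00473% and 0.00945% of all genes. Their part in the lower levels of the members was not tested.

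**Figure D4:**
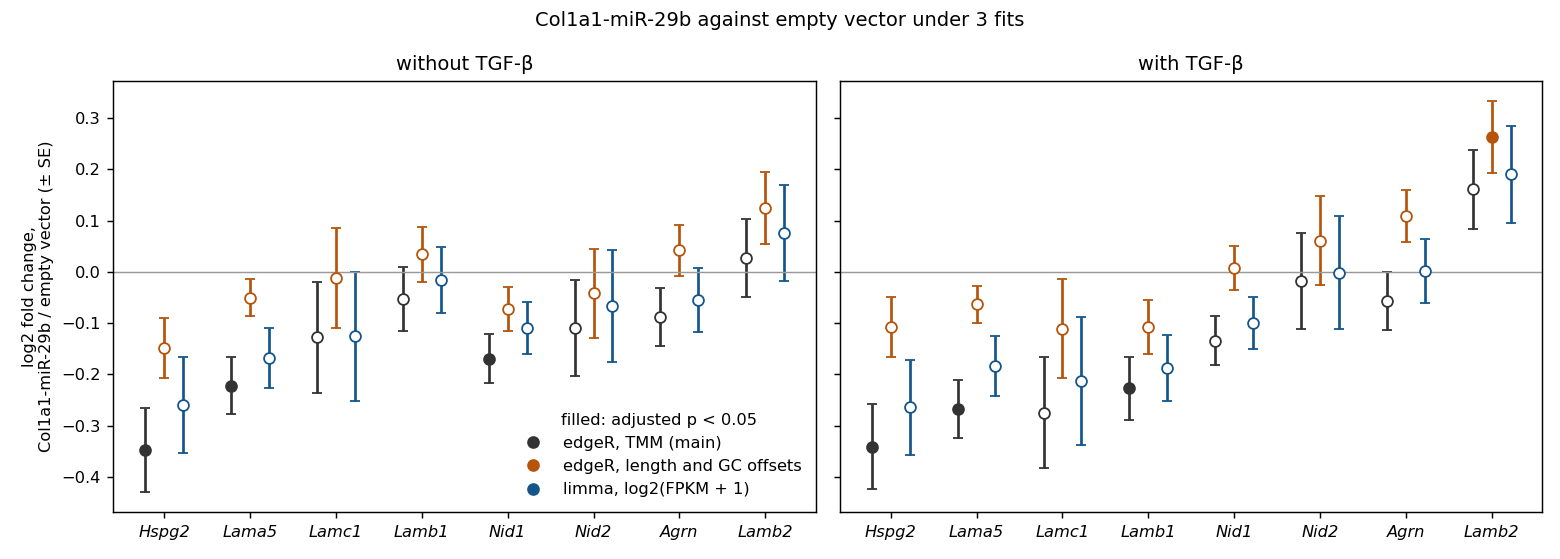
Log2 difference of Col1a1-miR-29b from empty vector cells with its standard error, without (left) and with (right) TGF-β, for 8 members under 3 fits; filled points have an adjusted p under 0.05. Hspg2 is at −0.35 and −0.34 with edgeR on TMM-scaled counts, at −0.15 and −0.11 with length and GC offsets, and at −0.26 in both with limma on log2(FPKM + 1).

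In CMV-miR-29b cells, which held the most Mir29b-1 counts, no member passed against the same empty vector libraries with either treatment, by edgeR, DESeq2 or limma, beside 0.00473% and 0.00945% of all genes in edgeR's test. An unadjusted p under 0.05 was found for 1 member under each treatment, and for 5.46% of all genes without and 12.0% with TGF-β. The first was Nid1 (log2 −0.15, SE 0.048, adjusted p = 0.77), whose libraries at 289 to 323 CPM were all below the empty vector's 334 to 351 CPM, as in 5.15% of all genes. The second was Lamc1 (log2 −0.27, SE 0.11, adjusted p = 0.34), whose groups overlapped. Nid1 was again lower in all 3 libraries with TGF-β, at 214 to 232 CPM against 233 to 242 CPM (log2 −0.086, SE 0.048), as were 8.01% of genes. Hspg2 was at −0.054 and −0.065 (SE 0.082), and Lama5 at −0.015 and −0.035 (SE 0.056). The 2 plasmids share the empty vector libraries, so their differences from it are not independent.

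Set directly against each other, the 2 plasmids differed in 1 member in edgeR's test and in 2, Lama5 and Hspg2, in DESeq2 with TGF-β. Lama5 was 17.5% higher in CMV-miR-29b than in Col1a1-miR-29b cells with TGF-β, at 179, 195 and 191 CPM against 161, 167 and 152 CPM (log2 0.23, SE 0.056, adjusted p = 0.047), beside 1.93% of all genes called. This call was lost without any 1 of the 6 libraries (adjusted p of 0.056 to 0.21). Hspg2 with TGF-β had the larger difference, at 391, 421 and 392 CPM against 340, 336 and 319 CPM with no overlap (log2 0.28, SE 0.083), and did not pass in edgeR's test (adjusted p = 0.10) but did in DESeq2 (0.034). Without TGF-β no member passed in edgeR's test (1.81% of all genes did), with Lama5 at 0.21 (adjusted p = 0.071) and Hspg2 at 0.29 (adjusted p = 0.082), and both had an unadjusted p under 0.05, as did 16.4% of all genes. Both passed in DESeq2, which called 1224 of 15910 genes without TGF-β and 1133 of 14659 with it. Both also passed in edgeR without CMV-miR-29b library e. Library e held 176 CPM of Lama5 and 358 CPM of Hspg2. The other 2 held 198 to 209 CPM and 449 to 474 CPM.

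The Hspg2 to Agrn ratio was 2.02 in empty vector cells, 1.69 with the Col1a1-miR-29b plasmid and 1.92 with CMV-miR-29b. With TGF-β it was 1.88, 1.55 and 1.87. Col1a1-miR-29b libraries did not overlap with empty vector libraries with either treatment (exact permutation p = 0.1 each, the smallest possible, and 0.27 adjusted). The longest transcripts of Hspg2 and Agrn differ in length (14187 and 8612 bases) and GC content (60.9% and 56.5%). Offsets for these were not applied to the ratio. The Lamb1 to Lamb2 ratio with TGF-β was lower in Col1a1-miR-29b cells (1.11 to 1.19) than in empty vector (1.34 to 1.63) or CMV-miR-29b cells (1.28 to 1.47), with the same exact p.

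The change with TGF-β was then compared between vectors. No member's response differed from that in empty vector cells at the threshold in edgeR's test, DESeq2 or limma, and 0.0% of the 21161 genes did so in edgeR's test. An unadjusted p under 0.05 was found for no member in Col1a1-miR-29b cells (4.54% of all genes) and for 1 in CMV-miR-29b cells (5.34%), Lamc1, whose response differed by −0.36 on the log2 scale (SE 0.15, adjusted p = 0.92). The Lamb1 response differed by −0.17 (SE 0.087) in Col1a1-miR-29b and −0.12 (SE 0.087) in CMV-miR-29b cells, and the Nid1 response differed by 0.035 and 0.066 (SE 0.068).

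**Figure D5:**
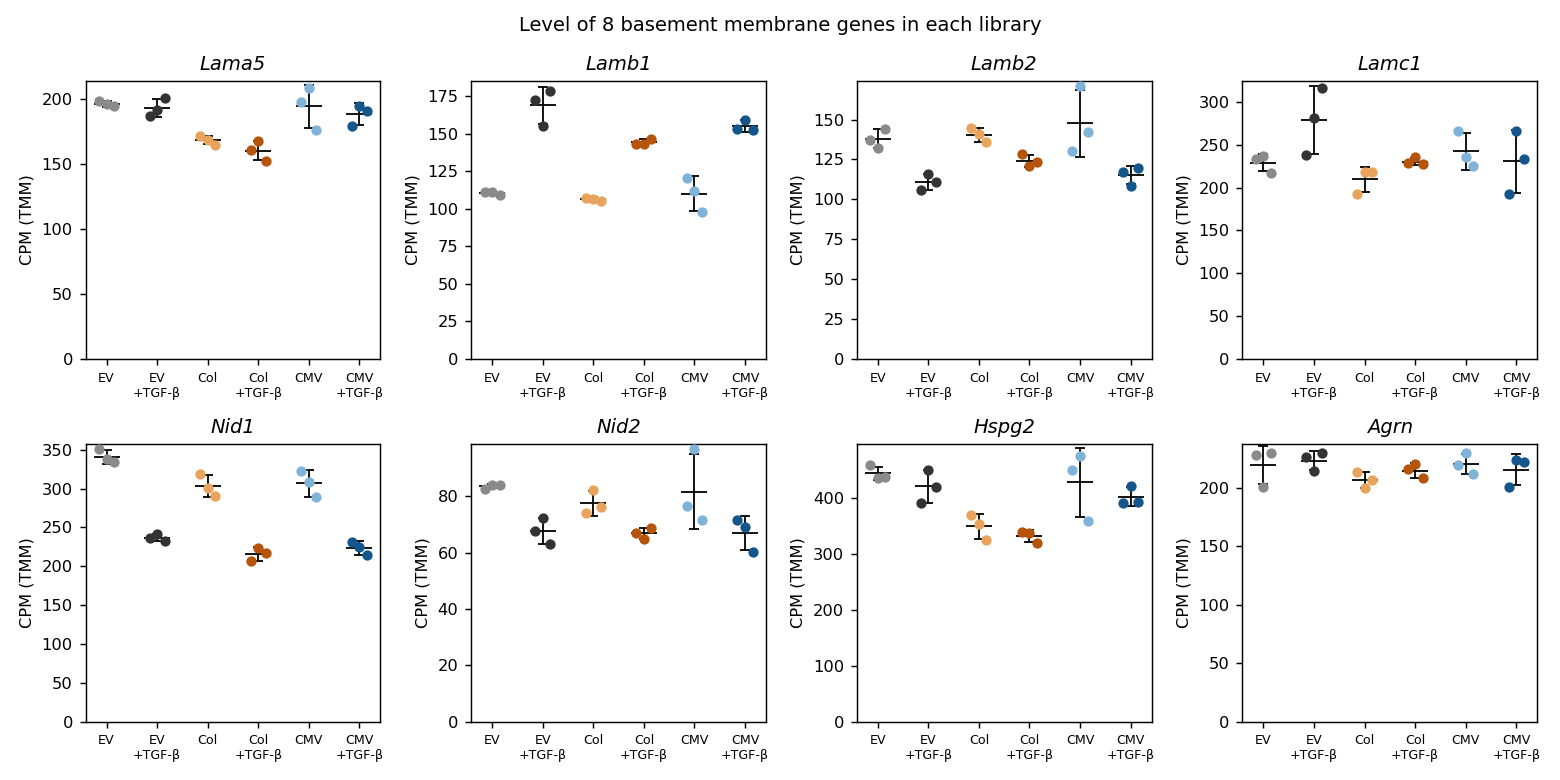
CPM of 8 members in each of the 18 libraries by group (EV, empty vector; Col, Col1a1-miR-29b; CMV, CMV-miR-29b), with the mean and SD of 3 libraries in black and axes that start at 0. Nid1 is lower and Lamb1 higher in every group with TGF-β than in the same vector without it, and Hspg2 and Lama5 are lowest in the 2 Col1a1-miR-29b groups.

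Other genes of the basement membrane give the context. Values of single genes below come from edgeR's test without the offsets for length and GC content. The shares of all genes called with TGF-β were 5.88%, 4.32% and 4.95% in empty vector, Col1a1-miR-29b and CMV-miR-29b cells. Against the empty vector with TGF-β, 7.63% of all genes were lower and 5.31% higher in Col1a1-miR-29b cells. Among the other laminin chains, 2 of the 4 tested rose with TGF-β in each vector. Lamb3, a β chain of epithelial laminin, went from 6.35 ± 0.99 to 16.8 ± 0.8 CPM (SD, n = 3) in empty vector cells (log2 1.41, SE 0.16, adjusted p = 2.7e-05). In Col1a1-miR-29b cells 1 other chain fell with TGF-β, and against the empty vector with TGF-β Lama3 was lower there (log2 −0.89, SE 0.26, adjusted p = 0.037), at 0.778 against 1.45 CPM. Limma on log2(FPKM + 1) called none of these chains against the empty vector with TGF-β. Of 8 basement membrane collagen genes, 3 rose and 1 fell with TGF-β in every vector. Col4a1, the α1 chain of type IV collagen, rose by 0.87 (SE 0.11), Col18a1, the source of endostatin, by 0.59 (SE 0.096), and Col4a5 fell by 0.61 (SE 0.054) on the log2 scale in empty vector cells. With TGF-β, Col1a1-miR-29b cells had lower levels of 3 of the 8 than empty vector cells, with Col4a5 at −0.44 (SE 0.054) and Col18a1 at −0.41 (SE 0.096). In that comparison limma on log2(FPKM + 1) called 2 of the 8.

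Of 13 laminin and agrin receptor genes tested, 2 rose and 3 fell with TGF-β in empty vector cells. Utrn, which ties dystroglycan to actin, rose by 0.52 (SE 0.12), Bcam, a laminin α5 receptor, fell by 0.47 (SE 0.12) and Itga3, an integrin subunit for laminin, fell by 0.40 (SE 0.094) on the log2 scale. With the Col1a1-miR-29b plasmid and TGF-β, 3 were lower, led by Utrn (log2 −0.79, SE 0.12) and Sgcd, a sarcoglycan (log2 −0.51, SE 0.12). None of the 13 enzymes that glycosylate dystroglycan passed with TGF-β in edgeR's test or in limma, and DESeq2 called 1 in CMV-miR-29b cells. In edgeR's test 2, 1 and 4 of them had an unadjusted p under 0.05 with the empty vector, Col1a1-miR-29b and CMV-miR-29b. Over all genes 3597, 3025 and 3310 of 21161 did so. Against the empty vector with TGF-β, Pomgnt1 was higher in Col1a1-miR-29b cells (log2 0.20, SE 0.062).

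Of 18 heparan sulfate enzymes tested, 5 rose and 1 fell when empty vector cells received TGF-β. The endosulfatases Sulf2 (log2 1.41, SE 0.17) and Sulf1 (log2 1.06, SE 0.21), which trim 6-O-sulfates, and the chain polymerase Ext1 (log2 0.74, SE 0.13) changed most. With the Col1a1-miR-29b plasmid and TGF-β 3 were lower and 1 higher, led by Ext1 (log2 −0.62, SE 0.13) and the epimerase Glce (log2 −0.26, SE 0.045). Among 13 other basement membrane glycoproteins tested, 3 rose and none fell: Fbln2 (log2 0.70, SE 0.12), Sparc (log2 0.40, SE 0.043) and Pxdn (log2 0.26, SE 0.070), and Fras1 was lower with the plasmid and TGF-β (log2 −0.74, SE 0.19). Of 10 proteases and inhibitors tested, 4 rose and 1 fell with TGF-β in empty vector cells. None fell with the plasmids, and 5 rose in Col1a1-miR-29b and 4 in CMV-miR-29b cells. The inhibitors Timp3 (log2 1.31, SE 0.065) and Timp1 (log2 0.73, SE 0.065) and the procollagen protease Bmp1 (log2 0.71, SE 0.098) moved most in empty vector cells. With the Col1a1-miR-29b plasmid and TGF-β Mmp14 was lower (log2 −0.34, SE 0.066) and Adamts1 higher (log2 0.32, SE 0.075). Against the empty vector, none of the 79 tested genes of these 7 lists passed in CMV-miR-29b cells in edgeR's test or in limma. DESeq2 called 1 of 89 such genes without TGF-β and 4 with it, beside 42 and 288 of all genes. An unadjusted p under 0.05 in edgeR's test was found for 6 and 17 of the 79, and for 5.46% and 12.0% of all genes. As a check of the treatment, Ccn2 rose 3.34-fold and Col1a1 2.39-fold with TGF-β in empty vector cells.

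Over the 18 libraries the 5 genes whose log2 CPM followed Lamc1 most closely, among 13911 with a mean of at least 1 CPM, were Dhx57 (r = 0.834), Efcab11 (0.805), Ctcf (0.798), 4732496C06Rik (0.793) and Plag1 (0.792). None of them is a basement membrane gene in the lists used here. Among the members the closest to Lamc1 were Lama5 and Lamb1, at 0.494 each.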

How the data were processed

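RNA from 18 samples of MEF cells was sequenced as stranded poly(A) libraries with paired ends. The authors trimmed reads with cutadapt, checked them with FastQC, aligned them with HISAT2 and assembled and quantified transcripts with StringTie. How reads were assigned for the counts is not given in the sources used here. The deposited table holds raw counts per gene (unit: counts) for 18 libraries and FPKM, normalized by the authors for transcript length and library size, with 0.0001 listed for 0. The submitters' notes name mm9, but 52506 of the 55450 genes have the coordinates of GENCODE M21 on GRCm38, so GRCm38 is used here. For the Col1a1-miR-29b groups, 1 column of counts each carries a letter that no title shows and was taken by its group alone (the unlettered libraries). Their 2 columns of FPKM were left out, so FPKM of those groups rests on 2 libraries.

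Counts were tested with edgeR 4.0.16 (R 4.3.3): TMM scaling, filterByExpr (21161 genes kept), 1 quasi-likelihood fit of 6 group means over all 18 libraries, Benjamini-Hochberg adjustment over all genes and a threshold of 0.05. CPM are TMM-scaled. Alternatives were DESeq2 1.42.0, other scalings and filters (at least 1 count in any library, at least 10 in every library), offsets for transcript length and GC content, groups fitted alone, a replicate block, limma 3.58.1 on log2(FPKM + 1) and log2(FPKM + 0.1), and each library left out. Leaving out the unlettered libraries was added after the data were seen. Count ratios were tested by two-sided exact permutation. The fits were tested on simulated data. The 10 members and the other lists were chosen with earlier results of these data known. Members are all named. From every other list the text names up to 3 genes with the largest called change with TGF-β in empty vector cells and up to 2 with each plasmid against the empty vector with TGF-β. Genes withheld from the text are not reported here by name.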

Additional observations from a re-analysis of the deposited data

How the results depend on the processing

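The 10 members gave 9 tested genes and 99 log2 fold changes, of which 15 passed. Those of Lamb1 and Nid1 with TGF-β passed under all 12 alternatives in each vector. Of 216 recomputed count ratios 11 changed sign, to values between −0.011 and 0.076 on the log2 scale. None of these was in the 10 comparisons whose libraries did not overlap. There, leaving out a library or pairing by letter could not change the sign, and only the ratio of FPKM could. The offsets for length and GC content were not applied to the ratios. With TGF-β in empty vector cells 3 members passed, 5 with offsets for length and GC content with or without the replicate block, and 2 to 3 with a library left out. The replicate block alone left 2, without Lamb2 (adjusted p = 0.067). In Col1a1-miR-29b cells 2 passed, and 3 with offsets (Lama5). In CMV-miR-29b cells 3 passed, 2 with groups alone (without Lamb2) and 4 with offsets and the block, where Nid2 was added (−0.31, adjusted p = 0.039). Between Col1a1-miR-29b and empty vector without TGF-β 3 passed, and 0 with the replicate block (adjusted p of 0.093 for Hspg2, 0.12 for Lama5 and 0.12 for Nid1), the unlettered libraries left out, offsets with or without the block, or limma on either FPKM scale, and 0 to 2 with a library left out. With TGF-β 3 passed, 1 with the replicate block (Hspg2; Lama5 had an adjusted p of 0.054 and Lamb1 of 0.079), 1 without the unlettered libraries, 1 with offsets (Lamb2, higher), 0 with offsets and the block and 0 with limma on either scale, and 1 to 3 with a library left out. Between the plasmids 0 passed without TGF-β, 2 in DESeq2, and 0 to 2 with a library left out. With TGF-β 1 passed, 2 in DESeq2, and 0 with the filter of at least 1 count, the replicate block, without the unlettered libraries, offsets with or without the block, groups alone, limma on either scale, or any library left out (0 to 0). The cause of these changes was not tested, but the fits with the block and without the unlettered libraries hold fewer samples.

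Against the empty vector without TGF-β, Agrn in Col1a1-miR-29b cells changed sign to 0.042 with offsets and 0.067 with offsets and the replicate block, and between the plasmids to −0.0031 and −0.026. Nid1 with TGF-β changed to 0.0080 (Col1a1-miR-29b against empty vector) and −0.022 (between the plasmids) with offsets. Lamb2 in CMV-miR-29b cells without TGF-β ranged from −0.023 (without replicate d) to 0.17 with a library left out. Another 146 sign changes were of uncalled values smaller than their standard error. The replicate letters did not pair the libraries: deviations from the group means had a mean correlation of 0.0107 over 36 same-letter pairs and −0.00548 over 70 others. Calls over all genes moved with the setting: with TGF-β in empty vector cells from 1245 to 618 (groups alone) and 1753 (DESeq2), in Col1a1-miR-29b cells from 914 to 394 (replicate block) and in CMV-miR-29b cells from 1047 to 527 (groups alone). Between Col1a1-miR-29b and empty vector they moved from 1327 to 161 (replicate block) and 2398 (DESeq2) without TGF-β, and from 2738 to 794 (offsets and block) with it. For CMV-miR-29b against empty vector DESeq2 called 42 and 288 where edgeR called 1 and 2. Depth limits Lama2 and Lama4, at 0 to 50 and 0 to 12 counts.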
